A study of Mus musculus with 3 samples.

Results

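Genes of major histocompatibility complex (MHC) class I antigen presentation were examined in WR19L, a mouse T-lymphoma cell line of BALB/c origin. The 10 listed genes were the class I heavy chains H2-D1, H2-K1 and H2-T23, the light chain gene B2m, the peptide transporter and loading genes Tap1, Tap2 and Tapbp, the inducible proteasome genes Psmb8 and Psmb9, and the regulator Nlrc5. Every probe set whose only gene symbol was one of these genes was taken, which gave 26 of the 34958 probe sets with a single symbol, among 45101 on each array. They belonged to 9 genes, because both probe sets that name H2-T23 also name another gene, so no level is given for H2-T23. Of the 26, 9 were specific probe sets, with names ending in _at alone, and 17 were less specific ones ending in _x_at, _s_at or _a_at, whose probes can match related genes or several transcripts of 1 gene.

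The study measured total RNA on Affymetrix arrays, with 1 array for each of 3 groups. The first group was a knockout derivative of WR19L, called DKO in the labels, with stable expression of the Q84E mutant of ATP11A, a P4-ATPase that moves phospholipids between the leaflets of the plasma membrane. The second was DKO cells with stably expressed human ATP11A of wild-type sequence, and the third was parental WR19L cells, with neither the knockout nor a transgene. All cells were untreated, and the labels name neither the knocked-out genes nor the promoter of the transgene, nor whether each line was a single clone. DKO cells without a transgene were not analysed here, so in the ratios over parental cells knockout, transgene and derivation of the line cannot be told apart. Values are MAS5 signals on a linear scale, which depend on the probes, so levels are compared between arrays and never between probe sets.

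Class I molecules are built from a polymorphic heavy chain and the invariant light chain beta-2-microglobulin, and they carry peptides to the cell surface for inspection by CD8 T cells and natural killer cells. Proteasomes cut the peptides, the TAP transporter moves them into the endoplasmic reticulum, and tapasin holds the empty class I molecule beside TAP until it is loaded. NLRC5 acts on a shared promoter module of class I, B2m, Tap1 and Psmb9 genes, while interferons and NF-kappa-B act on further elements. The class I heavy chain genes are among the most polymorphic genes of the mouse. BALB/c mice carry the d haplotype, with Dd, Kd and a further gene, Ld, whereas the RefSeq sequence used here is that of C57BL/6J, of the b haplotype.

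With 1 array per group no value has a replicate, and neither an SD over samples nor a test between groups could be had. A floor was set at the 50th percentile of each array, a signal of 55.5 for Q84E, 50.5 for wild-type ATP11A and 50.3 for parental cells, and lower levels were raised to it for the ratios. A ratio that involves such a level is a bound and is written as "at least". The error of a ratio was described by how far 2 specific probe sets of 1 gene differed, and as an SD for 1 probe set it was 0.32 to 0.33 on the log2 scale for signals from the 50th to the 75th percentile, 0.16 to 0.19 up to the 90th and 0.099 to 0.14 above it. It covers the disagreement between probe sets on the same arrays. An effect of an array on both probe sets and the difference between cultures are left out. The same error is set beside less specific probe sets, from which it was not estimated. The T cell label was borne out by 7 of the 11 T cell markers with a single-symbol probe set, Cd3d, Cd3g, Cd247, Thy1, Zap70, Cd2 and Cd28, which were above the floor on every array, while Cd3e, Cd5, Cd8a and Cd4 lay under it by their specific probe sets. The summed signal of the 11 markers was 19441 in Q84E, 14244 in wild-type ATP11A and 20511 in parental cells. B cell markers reached the floor for 3, 2 and 3 of 6 genes on the Q84E, wild-type ATP11A and parental arrays, at a summed signal of 257 to 305, and macrophage and dendritic cell markers for 3, 2 and 3 of 9, at 272 to 339.7. Fibroblast markers reached it for 0 of 5 on any array, and the erythroid list for 1 of 3.

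The promoters of 4 members are printed because H2-D1 and H2-K1 are related in sequence, and because B2m and Tap1 belong to the same pathway. Each window runs from 250 bases before to 50 after the gene's start in RefSeq, build GRCm38.p6, 5' to 3' on the gene's strand. Capitals mark matches on either strand to TGACG, the CRE-like core of the X2 box, ATTGG, the inverted CCAAT of the Y box, GAAANNGAA, an interferon-type element, and GGGGATTCC, an NF-kappa-B site. The H2-D1 window lies at chr17:35262844-35263143 on the plus strand, that of H2-K1 at chr17:34000298-34000597 on the minus strand, that of B2m at chr2:122147437-122147736 on the plus strand and that of Tap1 at chr17:34187306-34187605 on the plus strand.
H2-D1: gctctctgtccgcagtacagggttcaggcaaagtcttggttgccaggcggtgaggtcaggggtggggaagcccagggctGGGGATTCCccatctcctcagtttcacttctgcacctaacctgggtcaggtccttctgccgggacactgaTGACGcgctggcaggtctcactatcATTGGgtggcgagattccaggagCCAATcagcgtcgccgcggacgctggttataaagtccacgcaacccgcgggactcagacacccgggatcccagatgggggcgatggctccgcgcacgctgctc
H2-K1: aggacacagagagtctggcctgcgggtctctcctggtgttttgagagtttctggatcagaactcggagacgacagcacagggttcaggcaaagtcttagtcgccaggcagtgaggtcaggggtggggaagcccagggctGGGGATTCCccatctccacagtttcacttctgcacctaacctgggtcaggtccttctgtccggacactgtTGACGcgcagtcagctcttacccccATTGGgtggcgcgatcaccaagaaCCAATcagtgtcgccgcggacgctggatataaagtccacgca
B2m: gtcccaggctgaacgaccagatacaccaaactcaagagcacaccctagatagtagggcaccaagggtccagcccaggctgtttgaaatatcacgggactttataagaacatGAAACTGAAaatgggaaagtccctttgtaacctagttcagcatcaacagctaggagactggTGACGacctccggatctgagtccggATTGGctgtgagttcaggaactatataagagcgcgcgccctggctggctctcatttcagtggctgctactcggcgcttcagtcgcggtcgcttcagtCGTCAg
Tap1: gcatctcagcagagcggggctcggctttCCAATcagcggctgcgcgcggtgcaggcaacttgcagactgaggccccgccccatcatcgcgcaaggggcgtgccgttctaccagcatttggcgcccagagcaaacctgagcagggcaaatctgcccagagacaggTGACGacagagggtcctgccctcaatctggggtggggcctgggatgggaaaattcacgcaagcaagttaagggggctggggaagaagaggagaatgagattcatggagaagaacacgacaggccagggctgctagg

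In the best local alignment the H2-D1 and H2-K1 windows were identical at 206 of 228 aligned positions, or 90.4%, against 99 of 162 positions for H2-D1 and B2m. Both heavy chain promoters held GGGGATTCC, TGACG and ATTGG in the same order, with 70 bases between the starts of the first pair and 25 between those of the next. GGGGATTCC occurred in 2 of the 8 member promoters in the table and in 0.259% of 27025 mouse promoter windows of the same length. TGACG occurred in 5 of the 8, against 21.0% of all windows, ATTGG in 7 of the 8, against 37.9%, and GAAANNGAA in 2 of the 8, those of B2m and H2-T23, against 8.57%. None of the motifs was searched for as a bound site, and the letters are those of the b haplotype. The Tap1 and Psmb9 windows overlap by 275 bases and face opposite ways, so these genes share 1 promoter region. Their TGACG and ATTGG matches are the same sites, each counted for both genes. With the likeness of H2-D1 and H2-K1, the counts out of 8 are therefore not counts of independent promoters. Tap2 and Nlrc5 are named only.

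H2-D1 encodes 1 of the classical heavy chains, and its probe sets gave the largest differences among the members. Probe set 1451784_x_at had a signal of 81.9 in Q84E cells, 66.0 in wild-type ATP11A cells and 1075 in parental cells. Probe set 1425545_x_at had 38.3 in Q84E cells, which is under the floor, 86.1 in wild-type ATP11A cells and 910.4 in parental cells. For both, the DKO lines were low and the parental array stood alone. The first was 16.3-fold lower in wild-type ATP11A than in parental cells and 13.1-fold lower in Q84E than in parental cells, with log2 ratios of -4.03 and -3.71. The second was 10.6-fold lower in wild-type ATP11A cells and at least 16.4-fold lower in Q84E cells, each against parental cells. Each of these differences was more than 10 times the probe set error of 0.32 to 0.33.

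A further H2-D1 probe set, 1451683_x_at, had signals of 10.2, 16.6 and 113.0 in Q84E, wild-type ATP11A and parental cells. It was at least 2.03-fold lower in Q84E and at least 2.24-fold lower in wild-type ATP11A cells than in parental cells. It reached the floor on the parental array alone, so under the filter it could only appear as lower in the DKO lines. Among the other H2-D1 probe sets, those with a measured ratio over parental cells did not share this pattern. The brighter specific one, 1426324_at, had signals of 109.1, 151.5 and 155.7, a log2 ratio of -0.039 for wild-type ATP11A over parental and of -0.51 for Q84E over parental, against an error of 0.33. Probe set 1425614_x_at had 66.1, 14.0 and 75.7, and 1452544_x_at had 68.5, 21.8 and 52.3. Both were close to the floor in Q84E and parental cells and under it in wild-type ATP11A cells. The remaining 3, 1451934_at, 1427651_x_at and 1450170_x_at, lay under the floor on all 3 arrays, with signals of 2.90 to 38.3. They could neither show the pattern nor lack it.

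**Figure D1:**
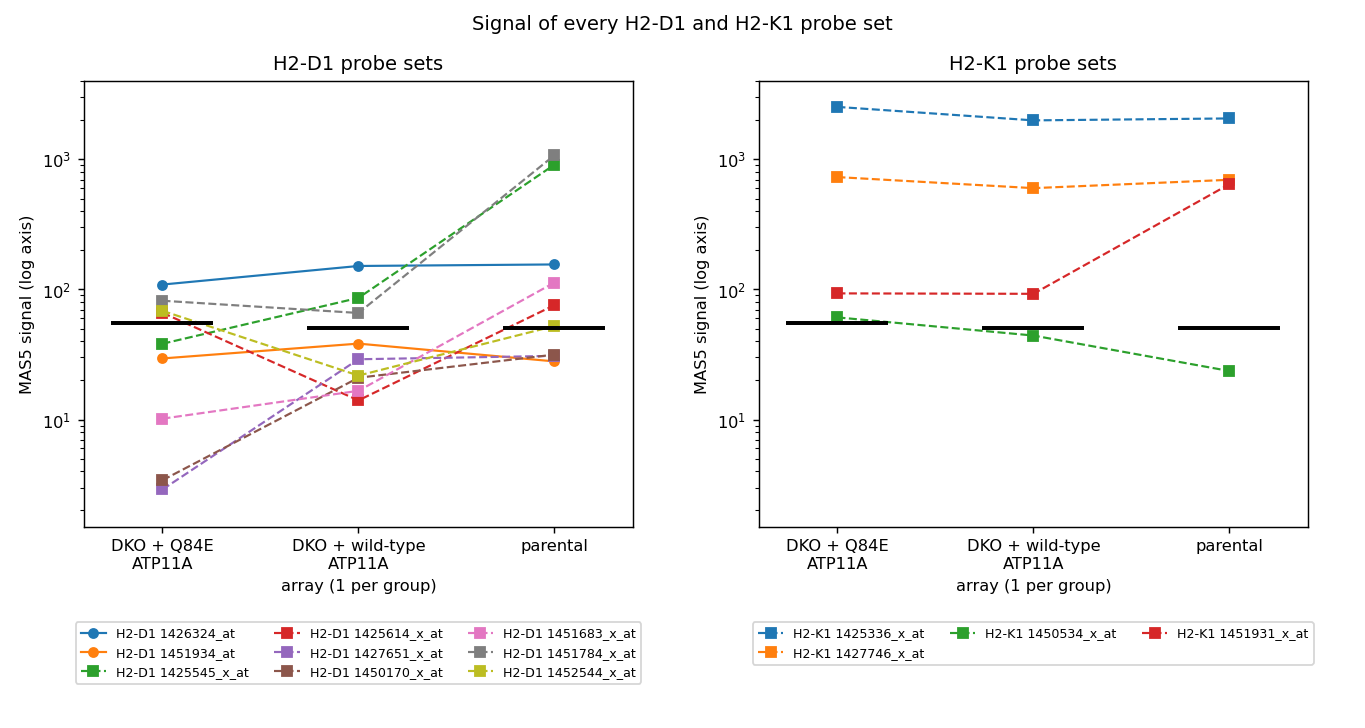
Signal of each H2-D1 (left) and H2-K1 (right) probe set on the 3 arrays, on a log axis; circles and solid lines are specific probe sets, squares and dashed lines less specific ones, and black bars mark the floor of each array. H2-D1 has 2 lines with parental signals of 910.4 and 1075 that are at 86.1 or less in both DKO lines, and 1 H2-K1 line has the same shape, while the brightest H2-K1 line stays between 1994 and 2530.5.

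H2-K1 encodes another classical heavy chain, and all 4 of its probe sets are less specific. The brightest, 1425336_x_at, had a signal of 2530.5 in Q84E cells, 1994 in wild-type ATP11A cells and 2063 in parental cells. The next, 1427746_x_at, had 731, 601 and 696. Neither was past 2-fold in any comparison, with log2 ratios over parental cells of 0.29 and 0.069 for Q84E and -0.049 and -0.21 for wild-type ATP11A. Probe set 1451931_x_at gave a different picture, at 93.3 in Q84E cells, 92.6 in wild-type ATP11A cells and 644 in parental cells. It was 6.91-fold lower in Q84E and 6.96-fold lower in wild-type ATP11A than in parental cells, the same pattern as the H2-D1 probe sets above and unlike the other probe sets named for H2-K1. With the floor at the 75th percentile of each array its log2 ratios were -0.72 for Q84E and -0.79 for wild-type ATP11A over parental cells, short of 2-fold, and 1451683_x_at of H2-D1 had no lower level left, while the 2 bright H2-D1 probe sets stayed past 2-fold. The fourth, 1450534_x_at, had 61.0, 44.2 and 23.6 and passed the floor in Q84E cells alone. Because probes of this kind can match several class I genes, and the alleles of BALB/c differ from those of other strains, the probe set names do not settle which class I transcript was low in the DKO lines. In RNA of a whole culture, fewer cells with a transcript and less transcript per cell cannot be told apart either.

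Over both kinds of probe sets, 21 of the 26 were compared because they reached the floor on at least 1 array, 7 of them specific and 14 less specific. Of the 21, 15 reached it on all 3 arrays, 3 on 2 and 3 on 1. At least 2-fold lower levels in wild-type ATP11A than in parental cells were found for 4 of the 14 less specific probe sets, while 1.01% of the 5733 less specific probe sets compared were that much lower. The same 4 were at least 2-fold lower in Q84E than in parental cells, where the share over all was 0.715%. Of these 4, 1451683_x_at of H2-D1 reached the floor on the parental array alone, so it could only appear as lower. Both comparisons share the parental array, and 0.419% of all less specific probe sets were low in both. Among the 5733, the 2 bright H2-D1 probe sets and 1451931_x_at of H2-K1 held the 3 lowest ratios in each comparison. The members were chosen with earlier results of these data known, so these counts and ranks describe the members and test nothing. Probe sets of this kind can match the same class I transcript, so the 4 need not be independent. None of the 14 was at least 2-fold higher, against 0.82% and 1.67% of all. Of the 7 specific member probe sets none was past 2-fold in either direction in wild-type ATP11A or in Q84E cells over parental cells, where 1.41% and 2.49% of the 15612 specific probe sets were.

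**Figure D2:**
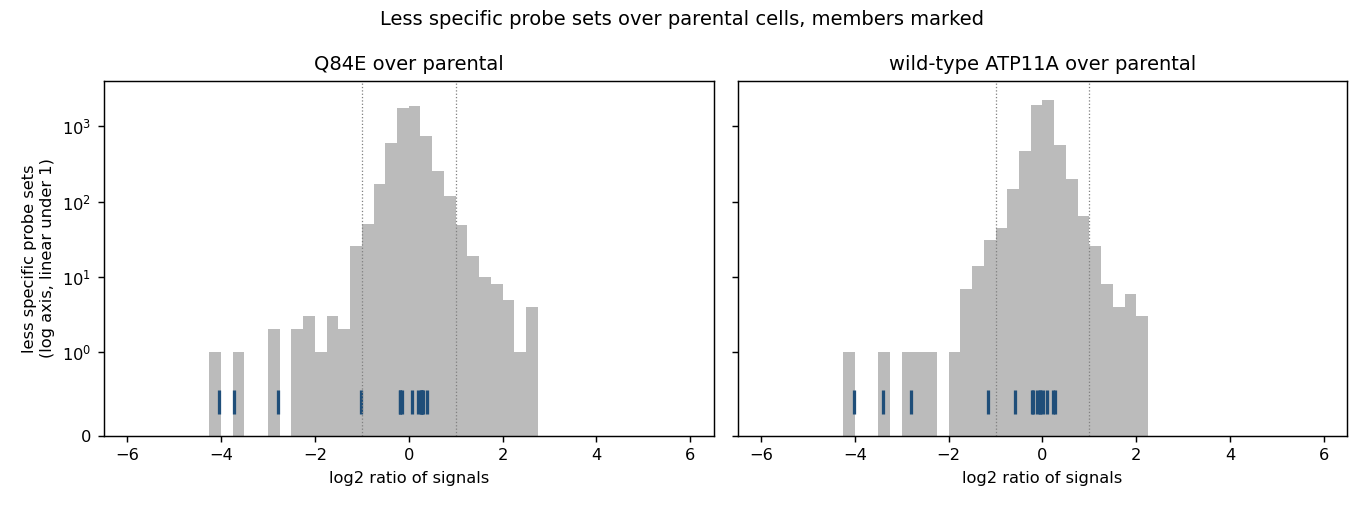
Number of less specific probe sets, of 5733 compared, by log2 ratio of signals for Q84E over parental (left) and wild-type ATP11A over parental cells (right), in bins of 0.25, on a log axis that is linear under 1; blue ticks mark the 14 members and dotted lines 2-fold. The ticks of 3 members lie at the far left, between -4.03 and -2.79, and the others lie between -1.16 and 0.39.

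B2m, the light chain of every class I molecule, was bright on all arrays. Probe set 1449289_a_at had signals of 8841 in Q84E, 9352 in wild-type ATP11A and 10086 in parental cells, and 1452428_a_at had 8520.2, 8205 and 9421. Both were highest in parental cells, by log2 ratios of no more than 0.20 in size. Those ratios were -0.19 and -0.15 for Q84E and -0.11 and -0.20 for wild-type ATP11A over parental cells, against an error of 0.11 to 0.14. The 2 probe sets had opposite signs for Q84E over wild-type ATP11A, at -0.081 and 0.054, within the error of 0.099.

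Tap1 encodes 1 of the 2 chains of the peptide transporter. Its bright probe set 1416016_at had a signal of 516 in Q84E cells, 328 in wild-type ATP11A cells and 381 in parental cells, so the Q84E array was high and the other two were close. The log2 ratio was 0.66 for Q84E over wild-type ATP11A, a 1.58-fold higher level, and 0.44 for Q84E over parental, against errors of 0.16 and 0.19. At least 1.5-fold higher levels in Q84E than in wild-type ATP11A cells were found for 5.99% of 11246 genes. Another specific probe set, 1448177_at, passed the floor in wild-type ATP11A cells alone, at 9.55, 63.0 and 16.6, and 1420274_at and 1449803_x_at were under it everywhere. As the mean of its 2 compared probe sets, Tap1 had a log2 ratio of 0.24 for Q84E over wild-type ATP11A. Probe set 1448177_at enters that mean as a bound of -0.18, being under the floor in Q84E cells. It passed the filter only through the array where it was high, so the mean is no check on 1416016_at. Tap2, the other chain, had signals of 1402, 1432 and 1230.2 by its single probe set, of the less specific kind, and log2 ratios of -0.030, 0.22 and 0.19 for Q84E over wild-type ATP11A, wild-type ATP11A over parental and Q84E over parental.

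Tapbp encodes tapasin, which bridges class I molecules and TAP. Its probe set 1421812_at had 497 in Q84E, 540.0 in wild-type ATP11A and 651 in parental cells, and 1450378_at had 149.9, 219 and 217. Both were lowest in Q84E cells, with log2 ratios over parental cells of -0.39 and -0.53 and errors of 0.19 and 0.33. Over wild-type ATP11A cells the ratios were -0.12 and -0.54. Psmb9 encodes an inducible catalytic subunit that replaces a standard one in the immunoproteasome, and its signals were 2379.7, 1996 and 1866. Psmb8, a second inducible subunit, had 6687, 5960.4 and 5616 by 1422962_a_at and 168, 167 and 139 by 1444619_x_at. The bright probe sets of both subunits were highest in Q84E and lowest in parental cells, with log2 ratios of 0.35 for Psmb9 and 0.25 for Psmb8 for Q84E over parental, against an error of 0.14. Nlrc5, the transactivator of class I genes, had 633 in Q84E, 538 in wild-type ATP11A and 657 in parental cells, so its lowest level was on the wild-type ATP11A array, at a log2 ratio of -0.29 over parental cells with an error of 0.18.

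**Figure D3:**
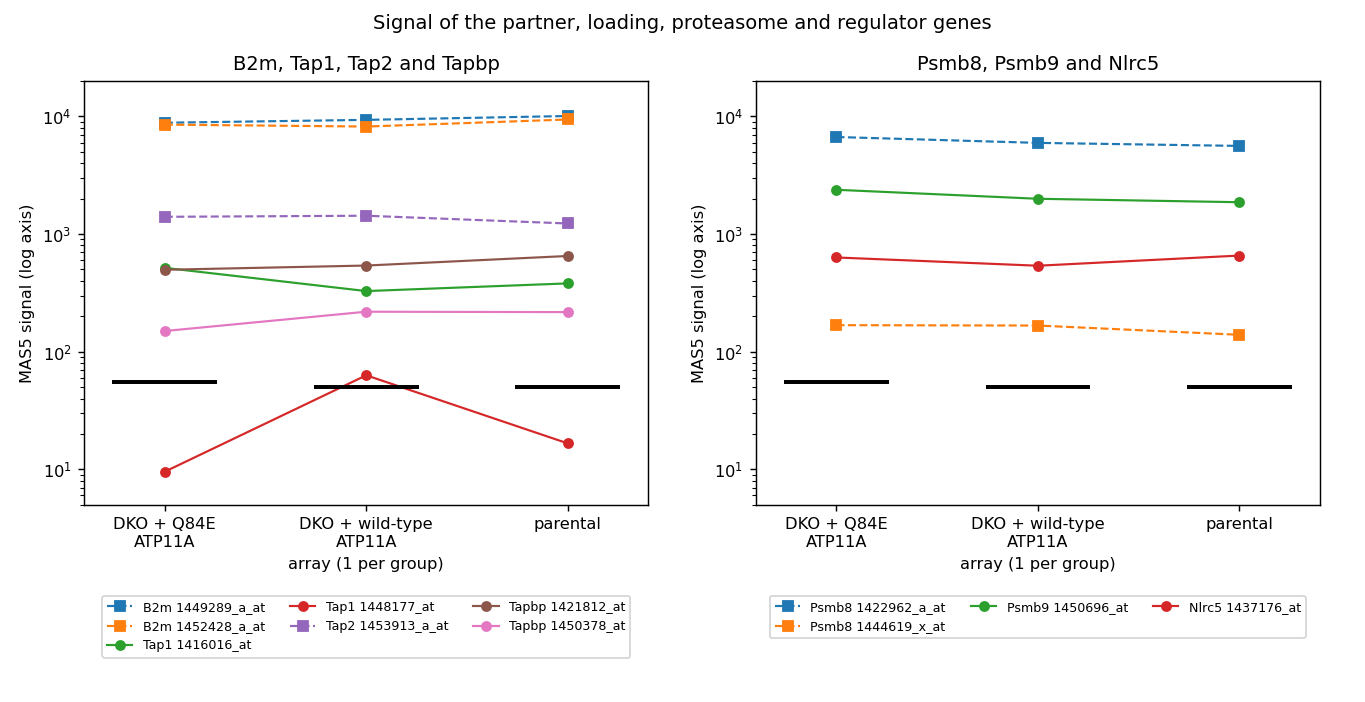
Signal of the compared probe sets of B2m, Tap1, Tap2 and Tapbp (left) and of Psmb8, Psmb9 and Nlrc5 (right) on the 3 arrays, on a log axis, with circles and solid lines for specific and squares and dashed lines for less specific probe sets and black bars for the floor. Apart from Tap1 1448177_at, which crosses the floor, each line stays within 1.58-fold over the 3 arrays.

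In Q84E over wild-type ATP11A cells, none of the 21 compared member probe sets was past 2-fold, where 1.45% of the specific and 1.36% of the less specific probe sets were. The specific ones lay between -0.54 and 0.66 in log2 ratio. By 1 probe set per gene, the brightest specific one where there was one, 5 of the 9 member genes were above 0 and 4 below. Their median was 0.17, against 0.050 over all 11246 genes. None of the 9 genes was past 2-fold by this choice in any comparison, where 1.38% of genes were in Q84E over wild-type ATP11A, 1.4% in wild-type ATP11A over parental and 2.45% in Q84E over parental cells. Of the probe sets low in the DKO lines, 1451784_x_at and 1451931_x_at were alike in both, at log2 ratios of 0.31 and 0.011. Probe set 1425545_x_at was at least 1.55-fold lower in Q84E than in wild-type ATP11A cells, with a log2 ratio of -1.17 without the floor. Probe set 1451683_x_at was under the floor in both. For wild-type ATP11A over parental cells the gene median was -0.049, against 0.0057 over all genes, and for Q84E over parental cells it was 0.19, against 0.070.

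**Figure D4:**
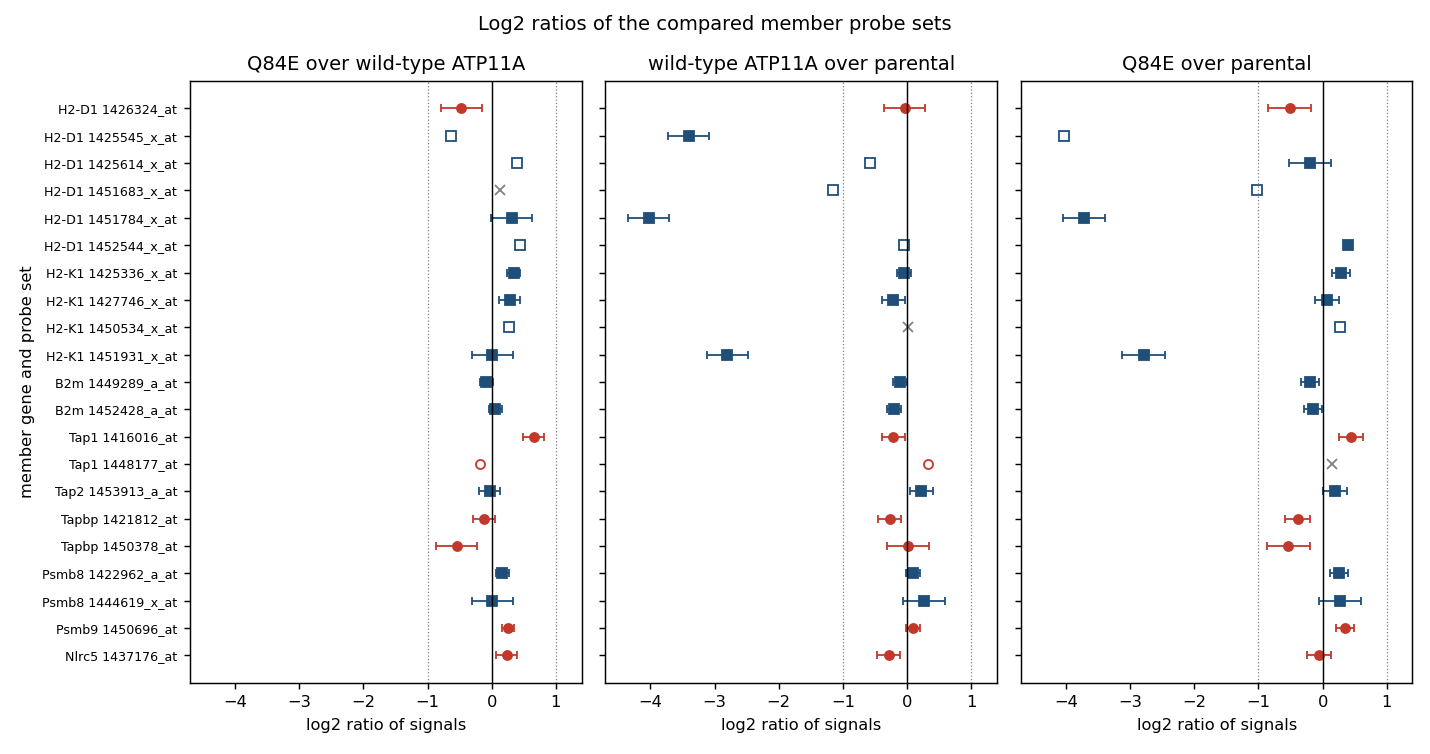
Log2 ratio of the 21 compared member probe sets in each comparison; red circles are specific and blue squares less specific, bars are the probe set error (1 SD) of that signal range where it was estimated, open symbols are bounds, grey crosses mark pairs of levels both under the floor, and dotted lines mark 2-fold. The points past 2-fold are 3 of H2-D1 and 1 of H2-K1 in each comparison over parental cells, from -1.02 to -4.03, and none in Q84E over wild-type ATP11A.

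In RefSeq, 8 of the 10 members lie on chromosome 17 in the MHC, while B2m lies on chromosome 2 and Nlrc5 on chromosome 8. The nearest compared genes on each side of H2-D1, H2-K1 and H2-T23 in RefSeq gene order, 10 on each side, were therefore set beside them. Around H2-D1, 0 of 20 neighbours were at least 2-fold lower in wild-type ATP11A or in Q84E cells than in parental cells, where 0.845% and 0.791% of all genes were. Of these 20, Lst1, Ltb, Atp6v1g2, H2-Q5 and 4833427F10Rik were under the floor in parental cells, so they could not appear as lower. The lowest of the 20 were -0.47 and -0.26. Tnf, an inflammatory cytokine gene, was lower in Q84E than in wild-type ATP11A cells, at signals of 86.1 and 193, a log2 ratio of -1.17 at a background of 0.302% for that direction. Ltb, the gene of lymphotoxin beta, was higher in Q84E than in parental cells, at 133 against 15.3, which is under the floor, a bound of 1.41. Around H2-K1 and around H2-T23, 0 of 20 neighbours each were past 2-fold in any comparison, where 1.38% to 2.45% of all genes were. The neighbours of H2-K1 include the members Tapbp, Psmb9 and Tap1, already counted above. H2-Oa near H2-K1 and Rnf39 near H2-T23 were under the floor in parental cells, so they could not appear as lower than there. The RefSeq order is of the b haplotype, and class I genes particular to the d haplotype have no place in it.

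**Figure D5:**
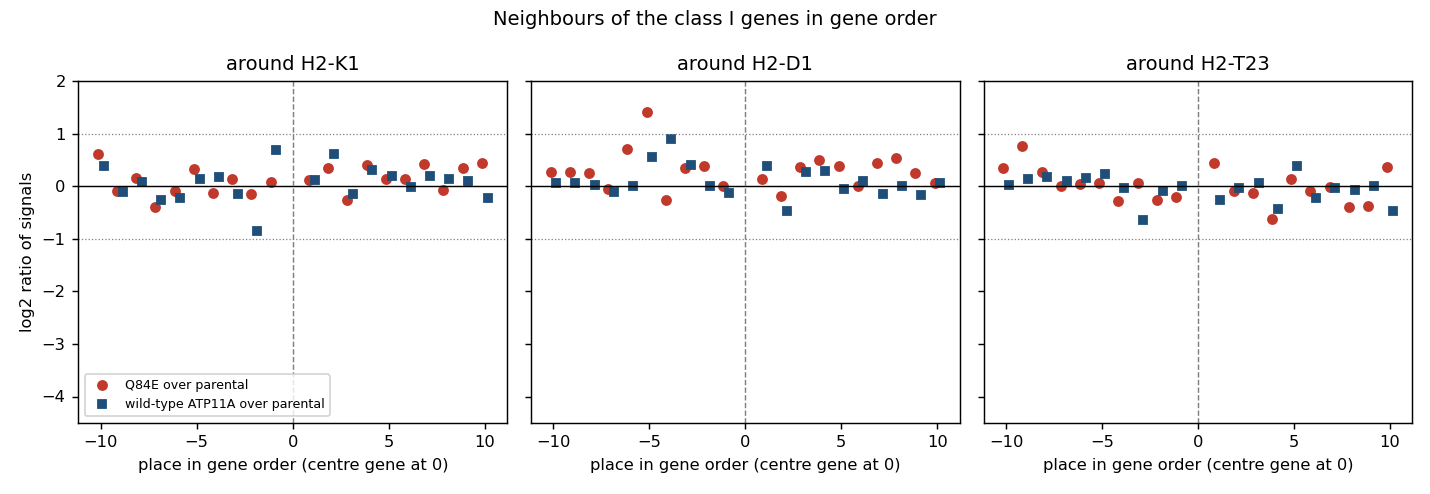
Log2 ratio of signals for the 10 nearest compared genes on each side of H2-K1, H2-D1 and H2-T23, by place in RefSeq gene order with the named gene at 0; red circles are Q84E over parental, blue squares wild-type ATP11A over parental cells, and dotted lines 2-fold. The one point past 2-fold is Ltb, 5 places before H2-D1, at 1.41 for Q84E over parental.

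The member probe set of largest range was 1425545_x_at of H2-D1. By the root mean square difference of the 3 centred log2 levels, the nearest probe sets of other genes were both of Lrrc8e, at 0.34 and 0.45, then Itln1 at 0.46, Ppp4r1 at 0.47 and 1451931_x_at of H2-K1 at 0.51. Lrrc8e encodes a subunit of volume-regulated anion channels and had 16.3, 10.6 and 587 by its nearest probe set in Q84E, wild-type ATP11A and parental cells. Itln1, the lectin intelectin-1, had 105.1, 105.8 and 793. The measure compares 3 floored levels per probe set and bears on nothing beyond their shape. Both Lrrc8e probe sets and that of Ppp4r1 were under the floor in both DKO lines, as 1425545_x_at was in Q84E cells. Their likeness is therefore partly set by the floor.

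Of 25 other heavy chain and class I-like genes listed, 14 had a single-symbol probe set, and the rest have no level here. Of the 14, 5 were compared, and the others were under the floor on every array by the probe set taken. In any comparison 0 of the 5 were past 2-fold, where 1.38% to 2.45% of all genes were. H2-M3, which presents formylated peptides, had signals of 852, 651 and 850.2 in Q84E, wild-type ATP11A and parental cells, and Cd1d1, which presents lipids, had 485, 565 and 419. Hfe, a regulator of iron uptake, had 51.9, 63.6 and 89.9. Of 12 other genes of loading and assembly, 11 were compared and 0 were past 2-fold in any comparison, where 1.38% to 2.45% of all genes were. Their medians were 0.034 for Q84E over wild-type ATP11A, -0.014 for wild-type ATP11A over parental and 0.020 for Q84E over parental. Tapbpl, a tapasin-related peptide editor, was at 0.41 for Q84E over wild-type ATP11A and at -0.32 for wild-type ATP11A over parental cells. Calr, the chaperone calreticulin, was at -0.23 and Sppl3, an intramembrane protease, at 0.58 for Q84E over parental cells.

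Among proteasome genes, 0 of 4 inducible or activator genes and 0 of 13 constitutive subunit genes were past 2-fold in any comparison. The share over all genes was 1.38% to 2.45%. Psmb10, the remaining inducible catalytic subunit, had signals of 5001, 6349 and 6847 in Q84E, wild-type ATP11A and parental cells, so it was lowest in Q84E cells, where Psmb8 and Psmb9 were highest. Its log2 ratio was -0.45 relative to parental cells and -0.34 relative to wild-type ATP11A cells, against errors of 0.14 and 0.099. Psme3, a nuclear proteasome activator, was at -0.36 and Psme4, another activator, at -0.38 for Q84E over parental cells, and Psme1, a subunit of the interferon-induced activator, at 0.15 for wild-type ATP11A over parental cells. The constitutive list had medians of -0.016, 0.019 and 0.028 for Q84E over wild-type ATP11A, wild-type ATP11A over parental and Q84E over parental, against 0.050, 0.0057 and 0.070 over all genes.

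Of 17 compared regulators of class I genes, 0 were past 2-fold in Q84E over wild-type ATP11A or in wild-type ATP11A over parental cells. The shares over all genes there were 1.38% and 1.4%. In Q84E over parental cells 1 of the 17 was at least 2-fold higher, where 1.66% of genes were. That gene was Irf8, a transcription factor of the interferon regulatory family, with signals of 459, 365 and 192 in Q84E, wild-type ATP11A and parental cells, a 2.39-fold higher level in Q84E cells. Its other probe set had 389, 318 and 196. Both probe sets of Irf8 put parental cells lowest and Q84E cells highest. Irf2, of the same family, had the same order, at 421, 331 and 217 by a less specific probe set, a 1.94-fold higher level in Q84E than in parental cells. Rfxank, a subunit of the factor that binds the X box, had 112.3, 142 and 86.9. Stat2, a signal transducer of interferon receptors, was at 0.65 for Q84E over parental cells.

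Interferon-induced genes, which often move with class I genes, were examined as 37 listed genes, of which 18 were compared. At least 2-fold lower were 1 of 18 in wild-type ATP11A over parental, 1 in Q84E over parental and 1 in Q84E over wild-type ATP11A cells, where 0.845%, 0.791% and 0.302% of all genes were, in the same order. None of the 18 was that much higher in any comparison, where 0.551% to 1.66% of all genes were. Usp18, a protease that removes ISG15 and restrains interferon receptor signalling, had signals of 41.1 in Q84E, 72.3 in wild-type ATP11A and 318 in parental cells. It was at least 5.73-fold lower in Q84E and 4.40-fold lower in wild-type ATP11A than in parental cells, by its only probe set. Gbp3, an interferon-induced GTPase, had 56.1, 131 and 90.6 by its only probe set, of the less specific kind. It was 2.34-fold lower in Q84E than in wild-type ATP11A cells, with the Q84E level just above the floor of 55.5. Ddx58, which encodes the RNA sensor RIG-I, had 227, 167 and 135.5, the order opposite to Usp18. The medians of the list were 0.015, -0.0043 and -0.13 for Q84E over wild-type ATP11A, wild-type ATP11A over parental and Q84E over parental.

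Class II genes, which present peptides to CD4 T cells and are mostly expressed by antigen-presenting cells, were examined too. Of 11 listed genes, 10 had a single-symbol probe set and 5 were compared. H2-DMa, a chaperone subunit for class II peptide loading, had signals of 348, 299 and 261 in Q84E, wild-type ATP11A and parental cells. H2-Eb2, a class II beta chain gene, had 107.7, 191 and 95.3, so the wild-type ATP11A array stood highest. It passed 2-fold over parental cells, as 0.551% of genes did in that direction. Cd74, the invariant chain, had 60.9, 81.9 and 81.4, close to the floor on every array. None of the 5 was past 2-fold in Q84E over wild-type ATP11A or in Q84E over parental cells, where 1.38% and 2.45% of genes were.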

How the data were processed

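Total RNA of 3 WR19L cultures was hybridised to 1 array each, and groups were taken from the labels' genotype and, for Q84E, the title. The deposited values are linear-scale intensity, 1 signal for every probe set. Per the submitters' processing notes the authors computed it with MAS5, of a version not given in the sources used here. All arrays had a trimmed mean of 500.0, with 2% left out at each end, and this scaling was kept. Probe sets were named from the platform's annotation table, in which 34958 have 1 symbol, 932 several and 9211 no entry, and 34754 of the named ones matched RefSeq genes of GRCm38.p6 by Entrez identifier. No build is given for the arrays, so coordinates are printed only for RefSeq promoters.

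Signals were floored at the 50th percentile of their array and their log2 taken, and 21345 probe sets or 11246 genes that reached the floor on at least 1 array were compared. A gene stands for its specific probe set of highest mean log2 signal, or its brightest one where none is specific. Ratios are differences of 2 log2 levels, called at 2-fold or more, with no test. Pathway genes named are the 3 of largest ratio per list and comparison, or fewer, and neighbours those past 2-fold. The members and lists were chosen with earlier results of these data known. The steps were tested on simulated data. Python 3.11.15, pandas 2.3.3, SciPy 1.17.1, Biopython 1.88 and matplotlib 3.10.9 were used.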

Additional observations from a re-analysis of the deposited data

How the results depend on the processing

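Over 201 values of a member gene's log2 ratio under another summary, scaling or floor, 184 moved by less than the probe set error and 17 by more. For Q84E over wild-type ATP11A, Tap1 was at 0.47 with a 75th percentile floor and at 0.24 as a mean over probe sets, against 0.66. Signs differed for H2-D1 in that comparison, at 0.31 by its brightest probe set of any kind and 0.028 as a mean over all, against -0.47. They also differed for H2-K1 in Q84E over parental cells, at -0.54 as a mean over all probe sets, against 0.29, and for Tap1 in wild-type ATP11A over parental cells, at 0.054 as a mean, against -0.22. The H2-D1 ratio depended on which probe set stood for the gene, at -0.039 by the specific one and -4.03 by the brightest of any kind for wild-type ATP11A over parental cells, and at -0.51 and -3.71 for Q84E over parental cells. Of 48 counts of member probe sets past 2-fold under an alternative, 37 were within 1.5 times the reported count, among them all counts under quantile normalization, under a common median and without the filter. With a floor at the 25th percentile, less specific members past 2-fold numbered 3 for Q84E over wild-type ATP11A, against 0, and 7 for Q84E over parental, against 4, and 1 specific member each passed for Q84E over wild-type ATP11A and wild-type ATP11A over parental, against 0. With no floor and a pseudocount of 16 the same specific counts were 1 and 1, and 2 less specific members passed for Q84E over wild-type ATP11A. With the floor at the 75th percentile 2 of the 4 remained for wild-type ATP11A over parental and for Q84E over parental, both of H2-D1. At 1.5-fold, 1 specific and 1 less specific member passed for Q84E over wild-type ATP11A. With less specific probe sets included, the error moved outside its 95% interval in 4 of 9 cases, to 0.34 and 0.35 from the 50th to 75th percentile and to 0.095 and 0.11 above the 90th, for wild-type ATP11A over parental and Q84E over parental. Leaving out a replicate was not possible with 1 array per group. No paired analysis was possible because each group has 1 array. Quantile normalization moved the median of all genes from 0.070 to 0 for Q84E over parental, less than 0.1 in every comparison. Signals within a few fold of the floor, which include most H2-D1 probe sets, limit what can be said of them.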
